A study of Mus musculus with 18 samples.

Results

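Ribosome assembly and rRNA processing factors are the proteins that cut, fold and modify the precursor ribosomal RNA in the nucleolus and load ribosomal proteins onto it. The 52 genes described here were taken from a named list out of 21887 protein-coding genes and were sorted by known role into 25 factors of the small (40S) subunit, 24 factors of the large (60S) subunit and 3 other nucleolar proteins. A gene was called bound in a library when the summit of a MYC peak lay within 1 kb of either end of its RefSeq span. MYC is a transcription factor that pairs with MAX, binds E-box sequences and is known for driving ribosome production in growing cells and in liver tumours. The first steps of 40S assembly take place in the SSU processome, a large particle built on the U3 small nucleolar RNA, while 60S precursors mature through a series of helicases, GTPases and scaffold proteins such as the PeBoW complex.

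MYC occupancy was measured by chromatin immunoprecipitation and sequencing (ChIP-seq) in frozen liver tumours of FVB mice, with 9 MYC libraries and 9 input libraries. All mice carried the LAP-tta driver and the TRE-MYC transgene, which produces MYC in the liver once doxycycline water is withdrawn. The Homo tumours (Arid1a fl/fl with Alb-cre, mice about 100 days old), the Het tumours (Arid1a fl/+ with Alb-cre, about 70 days) and the WT tumours (Arid1a fl/fl without Cre, about 55 days) gave 3 MYC libraries each. Arid1a codes for the ARID1A protein of SWI/SNF, which moves nucleosomes, and Alb-cre deletes it in hepatocytes. Cells of the tumour in which Alb-cre was never active keep their alleles. Tumours were taken at death, so age changed with genotype in every comparison and the 2 cannot be told apart. Homo and Het mice both carried Alb-cre, so Cre changed with genotype only against WT. The comparison asks whether MYC occupancy of these genes differed with Arid1a dose.

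The lists held 112, 51 and 303 peaks in Homo replicates 1 to 3, 1713, 1869 and 378 in Het, and 92, 1567 and 4291 in WT. Homo replicate 2 and WT replicate 1 stood apart, with only 12 and 16 protein-coding genes bound, so values are also given without them. Median reads at a listed summit, recovered from the deposited fold and p of each peak, ranged from 41 to 75 per library. Peak lists cannot show whether Arid1a was deleted, and they do not measure expression. Of 8 marker genes for hepatocytes and other liver cell types, Apoa1 had a peak at an end in 1 library and Alb, Ttr, Afp, Ptprc, Cd68, Pecam1 and Krt19 in 0. Tissue was sequenced in bulk, so fewer cells with MYC at a gene and weaker binding in each cell cannot be told apart.

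The starts of the most often bound members are shown because the MYC summits lay on or just past them. These are the 6 members with the most bound libraries whose median summit lay in or within 100 bases of the 300-base start window (250 bases before to 50 after), and below them 2 members with no peak, picked after their values were seen because they hold a variant E-box. Each line runs 5′ to 3′ on the strand of the gene, from 100 bases before the start through the first 50 bases from it (RefSeq, GRCm38.p6, the assembly behind mm10), with CACGTG and its variant CACGCG, in either orientation, in capitals. 
Wdr43: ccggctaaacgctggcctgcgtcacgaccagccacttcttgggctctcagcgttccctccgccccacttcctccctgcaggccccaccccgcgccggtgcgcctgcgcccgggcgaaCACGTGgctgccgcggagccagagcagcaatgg
Ddx21: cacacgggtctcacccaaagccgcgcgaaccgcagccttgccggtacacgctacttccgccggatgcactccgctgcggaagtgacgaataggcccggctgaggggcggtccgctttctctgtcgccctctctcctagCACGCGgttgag
Ppan: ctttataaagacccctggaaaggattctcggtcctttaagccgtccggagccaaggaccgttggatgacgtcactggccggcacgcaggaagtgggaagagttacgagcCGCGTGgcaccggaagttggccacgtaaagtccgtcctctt
Ddx18: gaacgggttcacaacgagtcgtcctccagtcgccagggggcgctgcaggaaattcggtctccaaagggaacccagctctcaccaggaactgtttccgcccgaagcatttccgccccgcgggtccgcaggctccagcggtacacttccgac
Usp36: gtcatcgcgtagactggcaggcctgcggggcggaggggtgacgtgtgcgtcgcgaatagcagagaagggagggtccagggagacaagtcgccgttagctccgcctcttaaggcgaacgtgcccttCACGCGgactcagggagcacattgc
Rcl1: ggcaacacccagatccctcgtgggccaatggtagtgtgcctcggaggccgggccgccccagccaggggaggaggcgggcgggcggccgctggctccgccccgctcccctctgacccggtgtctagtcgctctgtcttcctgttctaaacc
Nip7: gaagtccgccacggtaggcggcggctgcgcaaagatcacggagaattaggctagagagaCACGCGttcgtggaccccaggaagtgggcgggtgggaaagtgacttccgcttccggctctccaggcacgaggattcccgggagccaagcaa
Utp14a: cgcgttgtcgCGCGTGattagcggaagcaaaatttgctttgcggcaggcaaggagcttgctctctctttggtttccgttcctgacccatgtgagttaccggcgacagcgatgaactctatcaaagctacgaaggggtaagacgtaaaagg
The windows are chr17:71616115-71616264 (plus strand), chr10:62602249-62602398 (minus strand), chr9:20888075-20888224 (plus strand), chr1:121567931-121568080 (minus strand), chr11:118290195-118290344 (minus strand), chr19:29101275-29101424 (plus strand), chr8:107056777-107056926 (plus strand) and chrX:48256834-48256983 (plus strand). Wdr43 holds the canonical E-box CACGTG just past its start. Ddx21, Ppan and Usp36 hold the variant there, and Ddx18 and Rcl1 hold neither in the stretch shown.

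MYC peaks were found at most of these genes, but mainly in Het and WT tumours. Of the 52 members, 35 were bound in at least 1 of 9 libraries (67.3%, against 14.9% of all protein-coding genes) and 27 in at least 2 (51.9%, against 8.03%). By genotype, 5 members were bound in at least 1 Homo library (9.62%, against 1.03% of all genes), 26 in at least 1 Het library (50%, against 7.85%) and 34 in at least 1 WT library (65.4%, against 14.3%). In at least 2 libraries of a genotype the counts were 0 members in Homo (background 0.238%), 20 in Het (background 3.98%) and 17 in WT (background 4.66%). The members' share was thus above that of all genes wherever any member was bound, and this share stands beside the counts as a description, since the list was chosen with earlier results of these data known.

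Library by library, the Homo tumours had 2, 0 and 3 bound members in replicates 1 to 3, the Het tumours 21, 25 and 8, and the WT tumours 0, 17 and 34. The means were 1.67 ± 1.53 members in Homo, 18 ± 8.89 in Het and 17 ± 17 in WT (SD, n = 3 each). Each Het library had more bound members than each Homo library, whereas Homo and WT overlapped because WT replicate 1 had 0. Of all protein-coding genes, 0.324%, 0.0548% and 0.918% were bound in the Homo libraries, 5.58%, 6.14% and 0.854% in Het and 0.0731%, 4.86% and 14.1% in WT. The members' share was 11.9 and 6.28 times that of all genes in Homo replicates 1 and 3, 7.24, 7.84 and 18 times in the Het libraries, and 6.73 and 4.63 times in WT replicates 2 and 3. In Homo replicate 2 and WT replicate 1, 0 of 52 members were bound. Only 12 and 16 of all 21887 protein-coding genes were bound there, so these counts of 0 say little about the members. Leaving out Homo replicate 2 gave a Homo mean of 2.5, and leaving out Homo replicate 3 gave 1.00. The WT mean was 25.5 without WT replicate 1 and 8.50 without WT replicate 3.

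**Figure D1:**
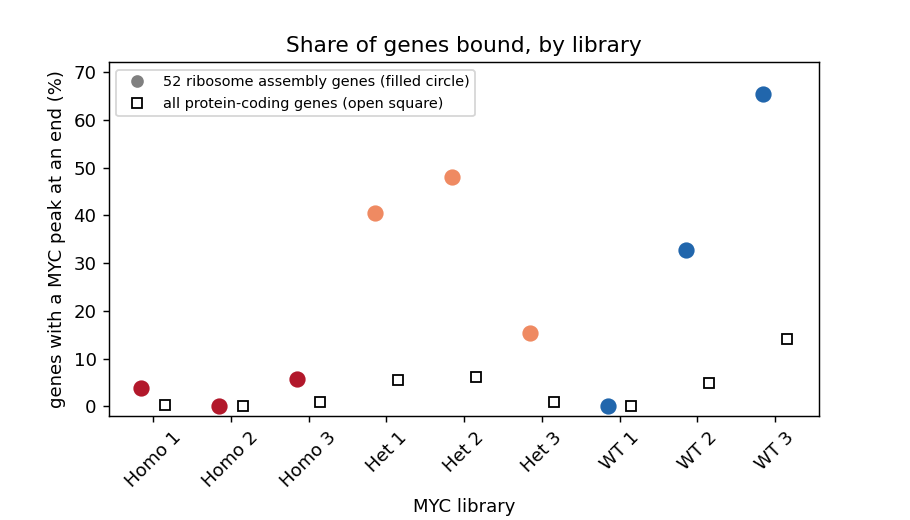
Share of genes with a MYC summit within 1 kb of an end (y axis, %) in each of the 9 MYC libraries (x axis, Homo, Het, WT); filled circles are the 52 ribosome assembly genes and open squares all 21887 protein-coding genes. The circles reach 65.4% in WT replicate 3 and 48.1% in Het replicate 2 and stay at or below 5.77% in the Homo libraries.

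No gene could be called different between genotypes. Every protein-coding gene bound in at least 1 library (3264 genes, of which 35 are members) was tested with a two-sided exact permutation test of bound or not bound over the 3 genotypes, with Benjamini-Hochberg adjustment. The test called 0 genes (0% of 3264), 0 had an unadjusted exact p under 0.05, and the lowest exact p was 0.143 (adjusted p = 1). A gene bound in every library of 2 genotypes and in none of the third would reach an exact p of 0.0357, and no gene showed that pattern. Very many of the 3264 genes would need that p for any of them to pass the adjustment. The 0 calls therefore do not show that binding was alike between genotypes. The members with an exact permutation p of 0.143 were Wdr36, Rcl1, Ppan and Usp36, each bound in 0 of 3 Homo, 3 of 3 Het and 2 of 3 WT libraries.

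The members bound in most libraries came from all classes. Wdr43, a subunit of the UtpA complex that opens SSU processome assembly, was bound in 6 libraries. Its highest authors' fold over background at the ends was 5.28 in Homo replicate 3, then 6.11, 9.15 and 8.84 in Het replicates 1 to 3, and 8.0 and 12.2 in WT replicates 2 and 3. The Homo fold was the lowest of the 6. Wdr43 had a further summit 775 to 864 bases past its start in Het replicates 1 and 2 and WT replicate 3, and in Het replicate 2 this was the higher of the pair. Ddx21, a nucleolar RNA helicase, had folds of 6.39 in Homo replicate 3, of 8.87, 11.7 and 5.76 in the Het libraries, and of 7.67 and 11.2 in WT replicates 2 and 3. Its Homo fold lay inside the Het range. Nol9, a polynucleotide kinase of the spacer cut between 5.8S and 28S rRNA, had folds of 5.44 in Homo replicate 1, of 8.18, 6.15 and 6.70 in the Het libraries, and of 6.99 and 15.6 in WT replicates 2 and 3. Again the Homo library held the lowest fold. Folds are the peak caller's own values in each library and were used to describe peaks, with no test between libraries. Each adds 1 to the scaled reads and to the background. The scaling ratio was 0.425 and 0.280 in Homo replicates 1 and 3, 0.286, 0.465 and 0.463 in Het, and 0.457 and 0.508 in WT replicates 2 and 3. Folds of different libraries are therefore not on the same scale.

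The other members found in Homo tumours were Ddx18 and Nmd3. Ddx18, an RNA helicase of 60S assembly, had a fold of 4.61 in Homo replicate 1, of 5.18, 7.93 and 7.88 in the Het libraries and of 7.23 in WT replicate 3. Nmd3, the adaptor that carries 60S particles out of the nucleus, had folds of 6.30 in Homo replicate 3, of 9.22 and 9.80 in Het replicates 1 and 2, and of 8.46 in WT replicate 3. For both genes the listed Homo fold was below each of the other listed folds, with the unlike scaling given above. No member was bound in more than 1 Homo library. At these 5 genes the Homo summits held from 41 reads (Ddx18) to 72 reads (Wdr43), over a local background of 4.93 (Nmd3) to 10.7 reads (Wdr43).

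**Figure D2:**
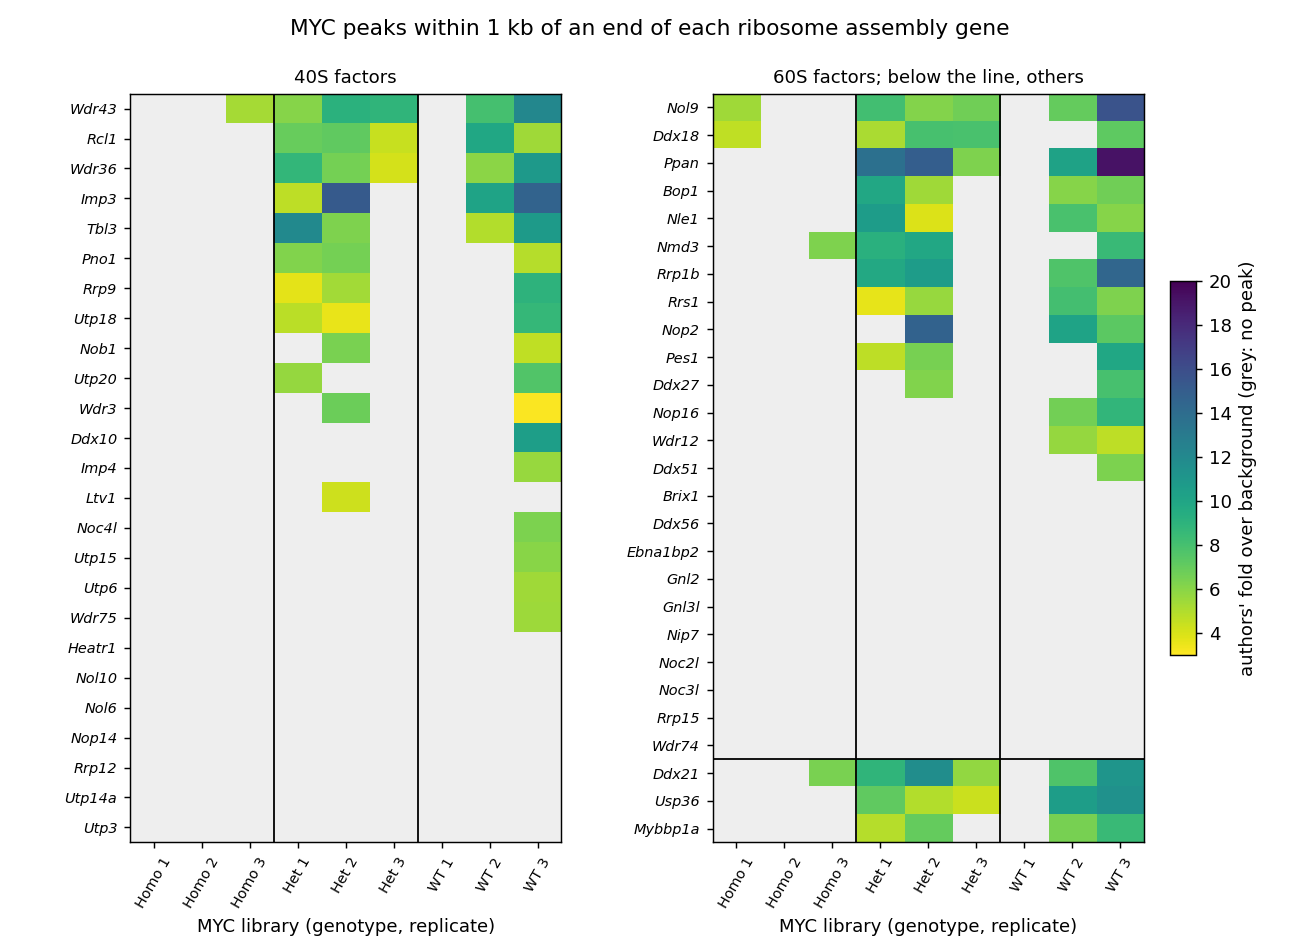
Highest authors' fold over background (colour scale, grey where no peak was listed) within 1 kb of an end of each of the 52 genes (rows) in the 9 MYC libraries (columns, Homo, Het, WT); 40S factors are on the left, 60S factors on the right with the 3 other nucleolar factors under the line. Homo columns hold 5 coloured cells, and 34 of the 35 bound members are coloured in WT replicate 3.

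Members of both branches were bound, and which branch had the larger share depended on the rule. In at least 2 of 9 libraries, 11 of 25 40S factors (44.0%) and 13 of 24 60S factors (54.2%) were bound, a difference of -10.2 percentage points that turned to -1.83 without WT replicate 2. In at least 1 library the order was the other way round, with 18 of 25 40S factors (72%) and 14 of 24 60S factors (58.3%). Of 40S factors 0, 0 and 1 were bound in the Homo libraries, 9, 11 and 3 in Het and 0, 5 and 17 in WT. Of 60S factors 2, 0 and 1 were bound in Homo, 9, 11 and 3 in Het and 0, 9 and 14 in WT. The 2 branches had equal counts in each Het library, and in WT their order differed between replicates 2 and 3.

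Among 40S factors, each of the 5 UtpB subunits listed (Tbl3, Utp6, Utp18, Wdr3 and Wdr36) had a peak in at least 1 library and 4 of them in at least 2. Tbl3 had folds of 11.9 and 6.30 in Het replicates 1 and 2 and of 4.95 and 10.7 in WT replicates 2 and 3. Wdr36 had folds of 8.76, 6.54 and 4.07 in the Het libraries and 5.96 and 10.9 in WT replicates 2 and 3. Neither had a peak in a Homo library. Of the UtpA subunits, Wdr75 and Utp15 were bound in WT replicate 3 only and Heatr1 in no library. Imp3, a protein of the U3 particle, reached folds of 4.72 and 15.2 in Het replicates 1 and 2 and 10.2 and 14.6 in WT replicates 2 and 3. Its partner Imp4 was bound in WT replicate 3 only, and Rrp9, which binds U3 RNA, in 2 Het libraries and 1 WT library. Rcl1, needed in yeast for cutting the 18S precursor, had folds of 6.97, 7.18 and 4.46 in the Het libraries and 9.89 and 5.44 in WT replicates 2 and 3. Of the late 40S factors, the endonuclease Nob1 and its partner Pno1 were bound in 2 and 3 libraries. Ltv1, a 40S export factor, was bound in Het replicate 2 alone and was the only bound member without a peak in WT replicate 3.

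Among 60S factors, the PeBoW complex (Pes1, Bop1 and Wdr12) had all 3 genes bound in at least 2 libraries. Bop1 had folds of 9.77 and 5.41 in Het replicates 1 and 2 and 6.07 and 6.68 in WT replicates 2 and 3. Pes1 had folds of 4.68 and 6.49 in Het replicates 1 and 2 and 9.90 in WT replicate 3, and Wdr12 had folds of 5.66 and 4.70 in WT replicates 2 and 3. Ppan, whose yeast counterpart acts in 60S assembly, carried the highest fold of the list: 13.7, 14.9 and 6.31 in the Het libraries and 10.2 and 19.2 in WT replicates 2 and 3, with no peak in a Homo library. Its summit in WT replicate 3 held 96 reads over a background of 3.13 and ranked 42 of 4291 peaks. Nop2, an rRNA methyltransferase, had folds of 14.7 in Het replicate 2 and 10.2 and 7.31 in WT replicates 2 and 3. Rrp1b had folds of 9.77 and 10.6 in Het replicates 1 and 2 and 7.67 and 14.4 in WT replicates 2 and 3. Rrs1, which helps bring in 5S rRNA, and Nle1, a late 60S factor, were each bound in 2 Het and 2 WT libraries. The 3 other nucleolar factors were all bound in Het and WT tumours: besides Ddx21, Mybbp1a in 4 libraries and the deubiquitinase Usp36, known for stabilising MYC in human cells, in 5. Usp36 had folds of 7.12, 4.93 and 4.33 in the Het libraries and 10.5 and 11.4 in WT replicates 2 and 3.

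Some of the bound sets were nested, for the members and for all genes alike. All 17 members bound in WT replicate 2 were also bound in WT replicate 3, and all 8 members bound in Het replicate 3 (Wdr43, Wdr36, Rcl1, Ddx18, Nol9, Ppan, Ddx21 and Usp36) were bound in every Het library (15.4%, background 0.731%). Of all protein-coding genes, 95.8% of those bound in WT replicate 2 were also bound in WT replicate 3, and 85.6% of those bound in Het replicate 3 were bound in every Het library. Some peaks cannot be assigned to the member alone: at 12 of 35 bound members a summit also lay within 1 kb of an end of another protein-coding gene, such as Higd2a beside Nop16, Hsf1 beside Bop1 and Mbtd1 beside Utp18. Ddx51 and Noc4l, both members, share their only peak (fold 6.34 in WT replicate 3).

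By the 1 kb rule 17 members were bound in no library: Nop14, Wdr74, Rrp12, Rrp15, Utp3, Utp14a, Heatr1, Nip7, Ddx56, Noc2l, Noc3l, Gnl2, Gnl3l, Ebna1bp2, Brix1, Nol6 and Nol10. For Noc2l and Ddx56 this came from the gene span and not from a lack of peaks. Noc2l had summits 51 to 172 bases past an annotated start that lies inside its span, with folds of 4.82 in Homo replicate 1, 7.96 and 9.33 in Het replicates 1 and 2, and 6.19 and 10.3 in WT replicates 2 and 3. Ddx56 had summits from -3 to 32 bases from such a start, with folds of 6.54 and 5.13 in Het replicates 1 and 2 and 7.74 in WT replicate 3. With annotated starts counted too, 37 members had a peak in at least 1 library (background 16.3%), 6 of them in a Homo library (background 1.16%), and 15 had none. At the edge of the window, the farthest summit counted was 901 bases from an end (the further Wdr43 summit, fold 6.29 in WT replicate 3) and the nearest not counted was 1411 bases from one (Noc2l, fold 9.33 in Het replicate 2).

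The Homo lists were short, so the same genes were also compared at like list lengths. Homo replicate 3 and Het replicate 3 had 303 and 378 peaks and bound 201 and 187 protein-coding genes, and 3 and 8 members were bound in them. With the 300 highest peaks of each of the 6 libraries that hold as many, 3 members were bound in Homo replicate 3, 6, 5 and 5 in the Het libraries and 5 and 5 in WT replicates 2 and 3. In these equal lists 0.914% of all genes were bound in Homo replicate 3, 0.809%, 0.996% and 0.644% in Het and 0.740% and 0.973% in WT replicates 2 and 3. Only 1 Homo library is long enough for this, so the difference has no replicate behind it. Among the 51 highest peaks of each list, the length of the shortest, the only member was Ppan in WT replicate 3, where 0.114% of all genes were bound.

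Within the lists, the median member peak stood in the lower part in Homo replicates 1 and 3 and in Het replicates 2 and 3. It stood in the upper part in Het replicate 1 and in WT replicates 2 and 3. The 2 member peaks of Homo replicate 1 ranked 88 and 100 of 112 by fold, and the 3 of Homo replicate 3 ranked 188, 198 and 247 of 303. The median rank was at 83.9% and 65.3% of the list length in Homo replicates 1 and 3, at 44.2%, 61.6% and 68.9% in the Het libraries, and at 32.5% and 34.0% in WT replicates 2 and 3. The median member fold was 5.02 and 6.30 in these Homo libraries, 6.97, 6.54 and 6.03 in Het, and 7.67 and 7.78 in WT, and the median fold of all peaks in the same lists was 6.99 and 6.81 in Homo, 6.72, 7.19 and 6.84 in Het, and 6.73 and 6.80 in WT. These ranks come from lists of different length, so their differences cannot be credited to genotype, and they were not tested.

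**Figure D3:**
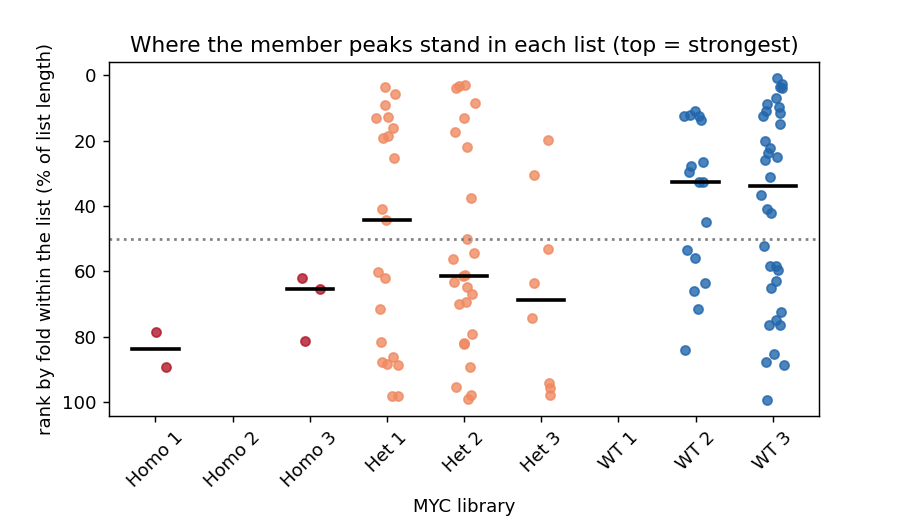
Rank by fold of each bound member's highest peak as a percentage of the list length (y axis, strongest at the top) in each MYC library (x axis, Homo, Het, WT); black bars are medians and the dotted line marks the middle of the list. Medians lie at 83.9% and 65.3% in Homo replicates 1 and 3, at 44.2%, 61.6% and 68.9% in Het replicates 1 to 3, and at 32.5% and 34.0% in WT replicates 2 and 3.

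Each list also had its own lower limit. At the lowest background of each library, a peak needed a fold of 5.21, 6.32 and 5.41 to reach the lowest listed -log10 p in Homo replicates 1 to 3, of 4.88, 4.90 and 5.29 in Het and of 6.08, 4.72 and 4.37 in WT. Of the 52 members, 22 were bound in 0 Homo libraries and in at least 2 of the other 6 (42.3%, background 7%). Of the 30 members bound in Het or WT tumours and in no Homo library, 24 had a fold above 6.32 in at least 1 Het or WT library and 13 in at least 2. No share of all genes was computed for these counts. The folds come from the same libraries by which these members were picked, so the counts only describe the lists. The other 6 stayed below that value in every library. The value holds at the lowest background only, and a lower fold can be listed where the background is higher. Ddx18 was listed in Homo replicate 1 at a fold of 4.61, against 5.21 at the lowest background. Whether peaks at these 6 could have been listed in Homo replicate 2 was therefore not settled. When summit reads and backgrounds of all libraries were scaled by calculation to the lowest background, with -log10 p of at least 10, the counts of bound members were 0, 0 and 1 in Homo, 12, 15 and 4 in Het and 0, 9 and 18 in WT. Of all protein-coding genes, 0.206%, 0.0548% and 0.557% were then bound in the Homo libraries, 2.14%, 3.77% and 0.471% in Het and 0.0548%, 1.12% and 4.41% in WT. Members and all genes were both bound less often in Homo than in Het replicates 1 and 2 and WT replicates 2 and 3. Het replicate 3 had more bound members than each Homo library but a lower share of all genes than Homo replicate 3. WT replicate 1 had 0 bound members and the same share of all genes as Homo replicate 2. The part of depth in the remaining difference was not tested.

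Where the members' strand was known, the summits gathered just inside the gene. An annotated start was matched for 43 members, and 30 of these had a peak at an end. The median summit lay after the start in 23 of them and before it in 7, from -414 bases (Imp4) to 427 bases (Wdr75), with a median over members of 58.5 bases after. In 23 members bound in at least 2 libraries, the highest summits spread over a median of 40 bases. The spread was at most 200 bases in 21 of them. It was 817 bases in Wdr43, where the further summit was the higher one in Het replicate 2, and 406 bases in Utp18. The Utp18 summit with the higher fold in Het replicate 1 (4.75) lay 463 bases past the start. A further Utp18 summit of that library (fold 4.43) lay 85 bases past it, near the Het replicate 2 and WT replicate 3 summits at 57 and 58 bases. For Ddx21 the summits in all 6 libraries lay 76 to 110 bases past the start, the Homo summit at 88. For Nmd3 they lay 171 to 199 bases past it, the Homo summit at 182.

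**Figure D4:**
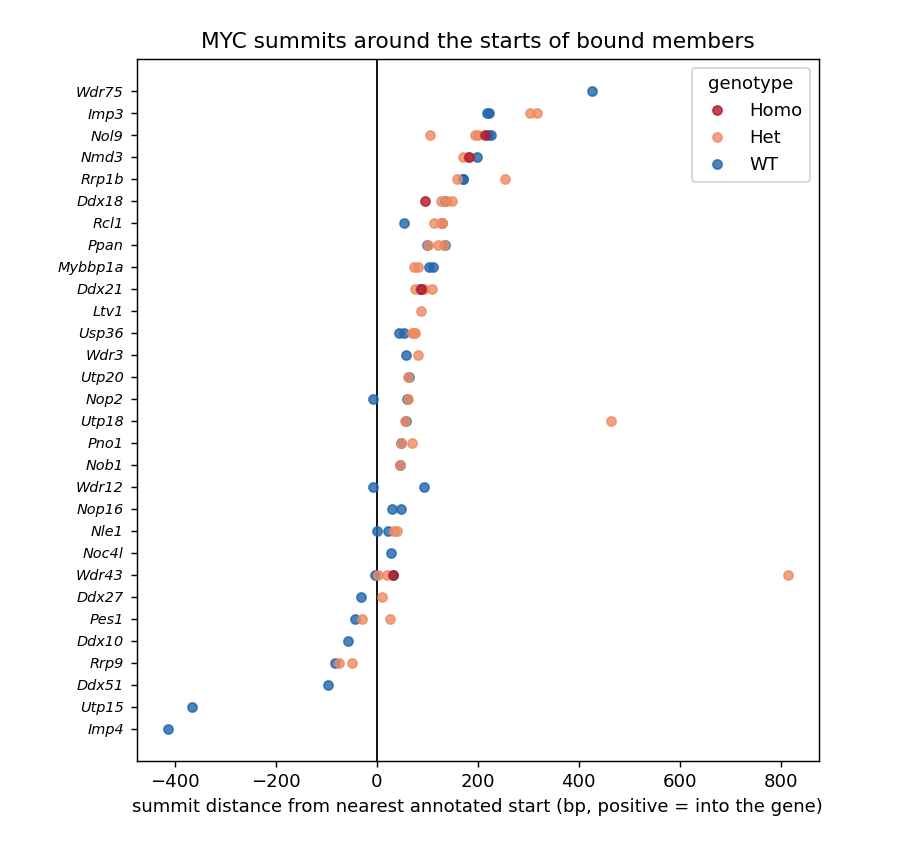
Distance of each library's highest summit from the nearest annotated start (x axis, bp, positive into the gene) for the 30 bound members with a known start (rows); points are libraries coloured by genotype (Homo, Het, WT). Most points lie between the start and 200 bases into the gene, and the points of Wdr43 and Utp18 spread the most, over 817 and 406 bases.

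The canonical E-box was more common in the start windows of often bound members than in those of all genes. CACGTG, which reads the same on both strands, stood in the 300-base start window of 9 of 23 members bound in at least 2 libraries (39.1%) and of 0 of 13 members bound in none. It stood in the windows of 21.3% of all 1465 protein-coding genes bound in at least 2 libraries and of 8.91% of all 17492 with a window. In Wdr43 it begins at base 18 from the start, against a median summit at 26.5, and in Nle1 at base 24, against a median summit at 28.5. In Pno1 and Utp20 it begins at base 38, with median summits at 49 and 62.5, and in Mybbp1a at base 41, with a median summit at 92.5. In Nmd3, Nop2 and Utp18 it lies before the start, at bases -114, -60 and -20, with median summits at 181, 59 and 58. In Pes1 it begins at base 3, with a median summit before the start at -29. The variant CACGCG, searched also as CGCGTG for the other strand, stood in 7 of 23 members bound in at least 2 libraries (30.4%) and in 4 of 13 bound in none (30.8%). It stood in 34.5% of all genes bound in at least 2 libraries, members included, and in 13.7% of all genes with a window. The members' differences in either motif were not tested, and the 13 members bound in none by the 1 kb rule are not all without MYC peaks. The 4 with the variant are Noc2l and Ddx56, which have peaks at inner starts, and Nip7 and Utp14a, shown above, which have no peak in any list. Members' windows were rich in CG, with a median of 23 CG dinucleotides, against 26 in genes bound in at least 2 libraries and 15 in all genes, so the comparison with all genes also compares base composition. A match is a description of letters and does not show which site MYC used.

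Assembly factors outside the 52 were also bound mainly in Het and WT libraries. Of 64 other ribosome assembly genes, 24 were bound in at least 2 of 9 libraries (37.5%, background 8.03%) and 34 in at least 1 (53.1%, background 14.9%). The counts were 2, 0 and 1 in the Homo libraries, 19, 17 and 0 in Het and 0, 16 and 32 in WT. All protein-coding genes were likewise bound mainly in Het and WT libraries. Their shares were 0.324%, 0.0548% and 0.918% in Homo, 5.58%, 6.14% and 0.854% in Het and 0.0731%, 4.86% and 14.1% in WT. Het replicate 3 differed between the lists, with 8 of 52 members and 0 of 64 other genes bound, and this difference was not tested. Riok2, a kinase of late 40S maturation, was bound in 2 Homo, 2 Het and 2 WT libraries, more Homo libraries than any of the 52 members.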

How the data were processed

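MYC peak lists of 9 libraries were used; input libraries had no separate file used here. Per the submitters' processing notes, the authors' tools were HOMER, MACS2 2.0.10.20131216, Picard and Bowtie2 2.2.3, with the build mm10; for the peak threshold no value is given in these sources. The lists have the MACS2 layout: the deposited fold enrichment (a ratio), the deposited −log10 p and −log10 q, and the summit offset, per peak and per library. Nothing says that libraries of a genotype came from separate animals, so a p-value here reflects spread between libraries that may be technical.

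A gene was bound when a summit (peak start plus offset) lay within 1 kb of either end of its RefSeq span (GRCm38.p6). Classes came from known roles. Members and lists were chosen with earlier results of these data known, so counts over members carry no p. Every member was accounted for, and those in at least 6 libraries, in any Homo library or in none were named by rule; others were named as examples of their class after their values were seen. Summit reads and background were solved from fold and −log10 p (a scaled read count plus 1 over background plus 1, Poisson upper tail), within 0.002 in −log10 p; from 97.8% to 100.0% of peaks per list had 1 solution. The gene-wise test and the solver were tested on simulated data. Python 3.11.15, pandas 2.3.3 and SciPy 1.17.1 were used. Alternatives changed the window, peak limits, list length and libraries, and used the replicate number as a block.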

Additional observations from a re-analysis of the deposited data

How the results depend on the processing

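Of 76 recomputed values that a setting could move (mean bound members, the count in at least 2 libraries and the difference between branches), 22 changed by over 1.5 times. Of the 27 members bound in at least 2 libraries, the count was 15 after thinning with -log10 p of at least 10 (chosen after seeing the data), 8 with the 300 highest peaks of 6 libraries (likewise) and 0 with lists of 51 peaks. With 51 peaks the means were 0 in Homo, 0 in Het and 0.333 in WT (1.67, 18 and 17 with all peaks), and the difference between the 40S and 60S shares was 0. With 300 peaks the means were 3 in Homo, 5.33 in Het and 5 in WT, and after thinning 0.333, 10.3 and 9. The Homo mean was 1 with -log10 q of at least 5 and with -log10 p of at least 10. The difference between the branches, -10.2 percentage points, was -1.83 within 250 bp, -22.7 within 5 kb, -18.2 at gene starts only (43 members with a start) and -18.0 with a fold of at least 5. Beyond the construction of these settings (fewer peaks or genes counted) the cause was not tested. With each library left out in turn, the Homo mean ranged from 1.00 to 2.5, the Het mean from 14.5 to 23.0, the WT mean from 8.50 to 25.5, the count in at least 2 libraries from 21 to 27 and the 40S minus 60S difference from -14.2 to -1.83. Without Homo replicate 2 and WT replicate 1 together (chosen after seeing the data), the means were 2.5 in Homo, 18 in Het and 25.5 in WT. The gene-wise exact test called 0 genes under each setting, and a count that was 0 from the start shows nothing of stability.

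With the replicate number as a block the gene-wise exact permutation test also called 0 genes (lowest p 0.222). Libraries of the same number correlated between -0.276 and 0.318 in their deviations, and those of different numbers between -0.386 and 0.305, so the numbers were not taken to pair the samples.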
